A study of Homo sapiens with 8 samples.

Results

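The 39 genes described here encode proteins of homologous recombination and of the Fanconi anaemia pathway, together with the checkpoint kinases that respond to the same lesions. They were taken from a list of names, and all 39 have a row in the deposited table of 14526 genes, where MRE11 appears under its older symbol MRE11A. RNA came from cells labelled HepG2, an established line from a human liver carcinoma, that were bought from a cell bank and, per the study's methods, not authenticated again. The control group holds 4 cultures for which the labels name no vehicle, and the SB-treated group holds 4 cultures kept in 10 mM sodium benzoate (SB) for 24 h. No genetic change is named for either group. SB is a food preservative and the source of the benzoyl group for histone lysine benzoylation (Kbz), and the RNA-seq comparison asks which genes change in expression when SB is added.

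Homologous recombination repairs a broken chromosome by copying an intact sister chromatid. The MRE11-RAD50-NBN complex and its partners recognise the break and cut back its 5′ ends, BRCA1, PALB2 and BRCA2 start the assembly of a protein filament on the exposed strand, and the RAD51B, RAD51C, RAD51D, XRCC2 and XRCC3 proteins and the RAD54 translocases help this filament to form and to search for its template. The Fanconi pathway removes crosslinks between the DNA strands: a core complex places ubiquitin on the FANCD2-FANCI pair, which brings in nucleases such as those held by the SLX4 scaffold. ATM and ATR are the kinases that signal breaks and stalled forks, through CHEK2 and CHEK1. Most of these genes are used in S and G2 phase, when a sister chromatid is at hand, and inherited loss of many of them raises the risk of cancer or causes Fanconi anaemia.

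The libraries held between 37010896 and 44518459 reads on the listed genes in the control group and between 37182456 and 44903216 in the SB-treated group. Levels are in RPKM, the reads of a gene scaled to its counted length and to the size of the library. Control replicate 1 stood apart: the chi-square of its reads against the other controls was between 33.4 and 38.5 per degree of freedom, against 1.52 to 3.80 for the other pairs within a group. Its deviation from the mean of the other controls had a correlation of -0.68 with the GC content of 14093 genes. Taken the same way within their groups, the other libraries ran from -0.39 for SB-treated replicate 1 to 0.46 for control replicate 2. Counts of calls for the 39 genes and the fold changes of some of them are given with and without control replicate 1. Its part in them was not tested otherwise. The cell label was also checked against defining genes. Of 22 hepatocyte markers, 19 have no row, ALB, AFP, APOA1 and HNF4A among them, and those with a row were low. TF, which encodes transferrin, was at 0.192 ± 0.0188 RPKM in control and 0.379 ± 0.0748 RPKM in SB-treated cells, and the asialoglycoprotein receptor gene ASGR1 was at 1.08 ± 0.136 and 1.30 ± 0.213 RPKM (SD, n = 4). A gene without a row did not pass the authors' expression filter, so most genes that define hepatocytes were absent or near 0 in these libraries, and the cells are called here by their label. In RNA from whole cultures, fewer cells of a kind, such as cells in S phase, and less RNA per cell cannot be told apart.

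The genes divided evenly between rise, fall and no call. With limma on log2(RPKM + 1) and an adjusted p below 0.05 over all 14526 genes, 13 of the 39 were higher in SB-treated cells, 13 were lower and 13 were not called. The share of all genes called was 65.6% (33.0% higher and 32.6% lower), so that the 66.7% of the 39 genes called lies at the background of the table. The ranges of the groups were apart for 25 genes, 12 rises in the treated libraries and 13 falls, against 61.5% of all genes (31.0% up and 30.5% down). For such a gene the exact two-sided permutation test of 4 against 4 gives p = 0.0286, the smallest it can give. The p-values measure the spread between these 4 cultures of a group. The changes were mostly small: the median absolute log2 fold change of the 39 genes was 0.18, against 0.20 over all genes, and the mean RPKM of 8 genes changed by more than 20% in either direction. The median log2 fold change was -0.04, against 0.0045 over all genes. Without control replicate 1, 13 genes were higher and 14 lower, where 75.5% of all genes were called (37.6% higher and 37.9% lower). In that comparison 12 of the rises and 13 of the falls were kept, FANCF was lost, MUS81 was added to the rises and FANCG to the falls. When the TMM factors, the authors' scaling for library composition, were taken out, the 39 genes divided as 14 higher and 6 lower, and their median turned to 0.06. All genes moved the same way in that setting, with 66.2% called, 43.0% higher and 23.1% lower, and a median of 0.08.

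**Figure D1:**
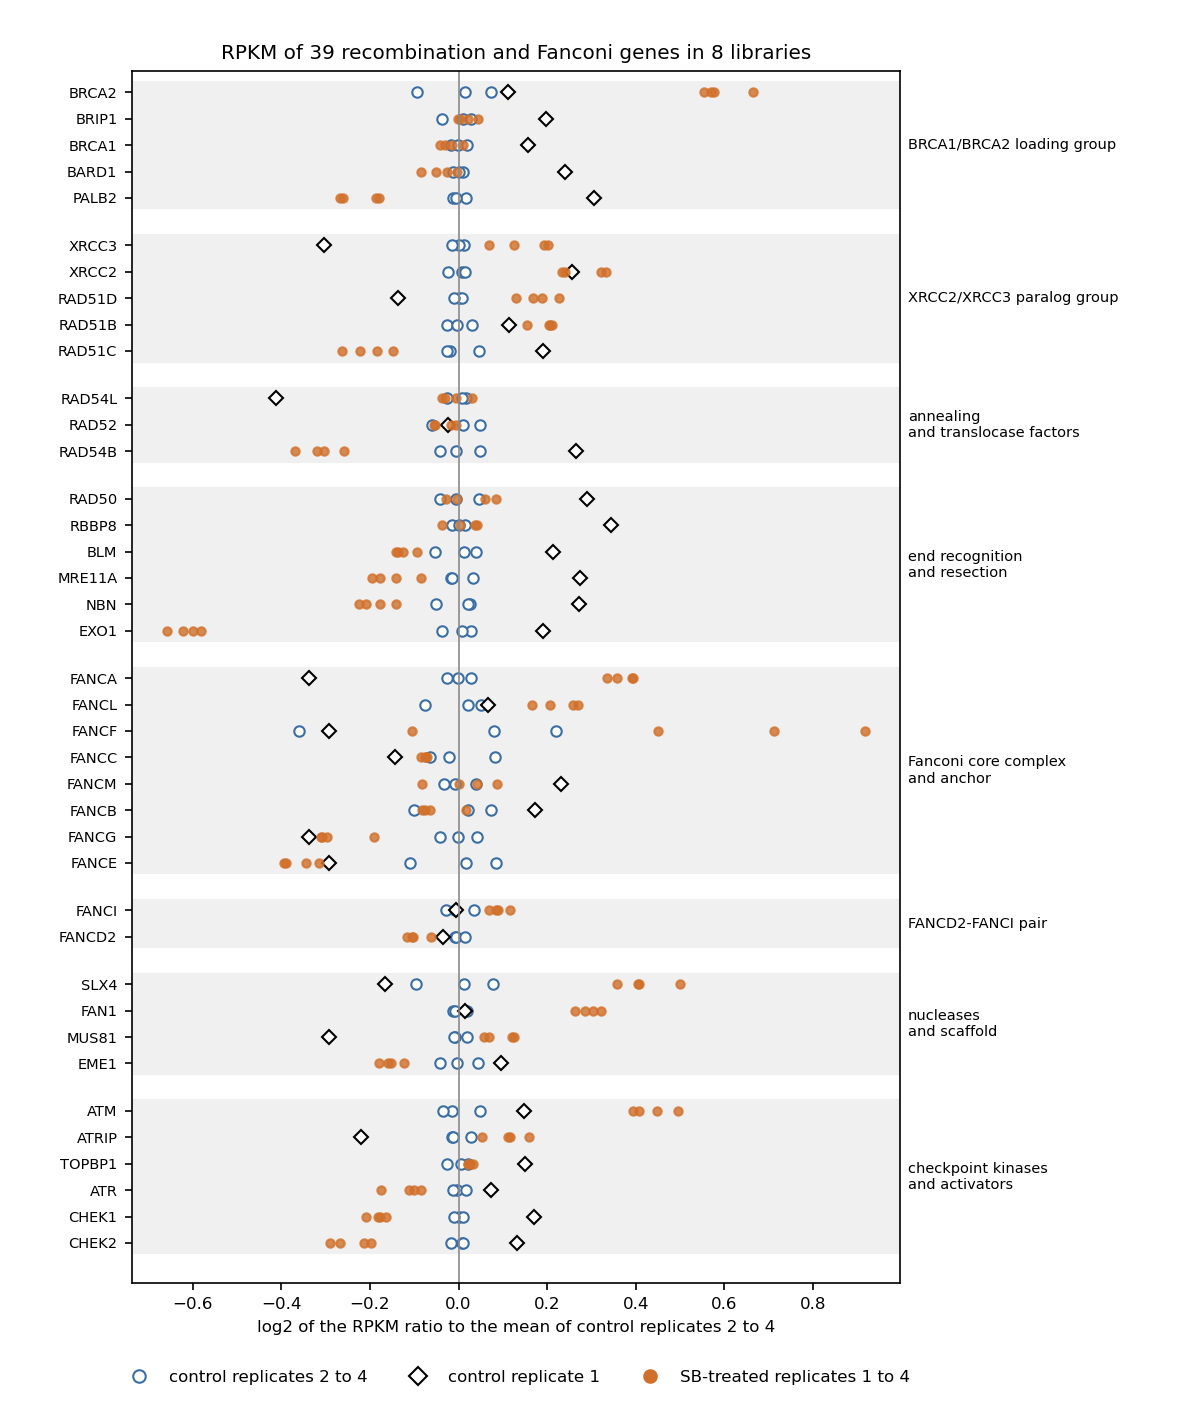
Each point is the RPKM of 1 gene in 1 library on a log2 axis, relative to the mean of control replicates 2 to 4, with SB-treated libraries as filled circles, control replicates 2 to 4 as open circles and control replicate 1 as diamonds, and with genes grouped by role. The SB-treated points of BRCA2 lie right and those of EXO1 left of every control, and the diamonds lie to the right of the other controls for 24 genes and to the left for 11.

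As the plot of the 8 libraries shows, the spread of the controls came mostly from replicate 1. It was the highest control for 24 of the 39 genes, whose median GC content was 40.4%, and the lowest for 11, whose median GC content was 57.6%. RBBP8 was at 63.1 RPKM in this library and between 49.3 and 50.2 RPKM in the other controls, and RAD54L was at 17.3 RPKM against 22.6 to 23.3 RPKM. The SB-treated values of both genes lay among those of control replicates 2 to 4 or close to them.

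**Figure D2:**
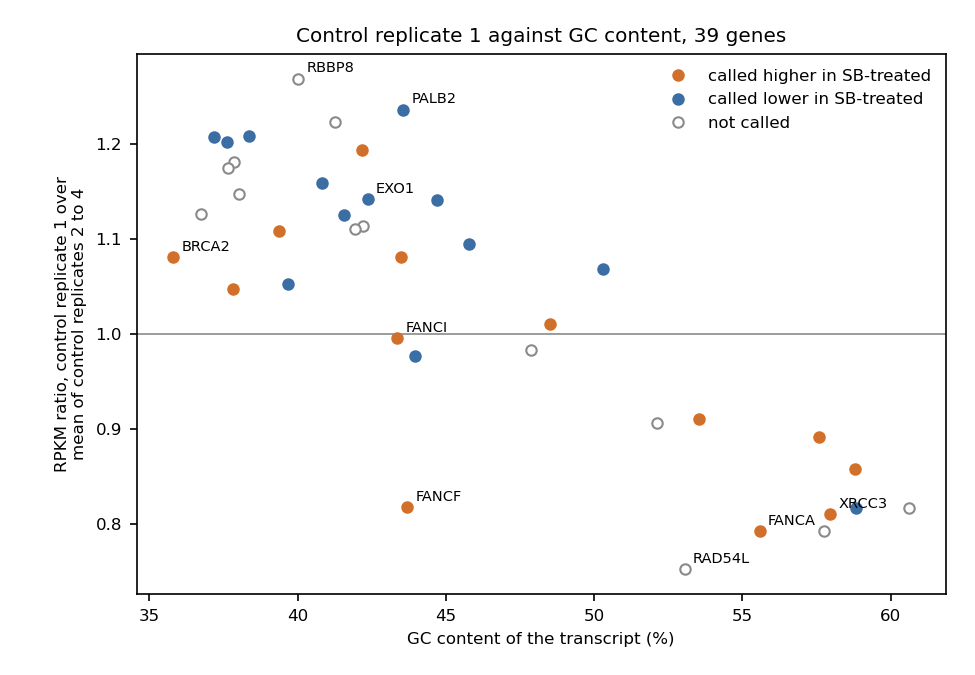
Each point is 1 of the 39 genes, placed by the GC content of its transcript in percent and by the RPKM in control replicate 1 divided by the mean of control replicates 2 to 4, with the colour giving the call between SB-treated and control cells. The ratio lay above 1 for most genes of low GC content and below 1 for FANCC, at 52.1% GC, and every gene above it, and it ranged from 0.752 for RAD54L to 1.27 for RBBP8.

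Levels spanned a wide range within the pathway. Per length, control means ran from 0.390 RPKM for FANCF, an adaptor subunit of the Fanconi core complex, to 108 RPKM for EXO1, the exonuclease of long-range resection. The median of the 39 genes was 15.8 RPKM, against 8.30 RPKM over all genes of the table. FANCF rested on a mean of 66.9 reads per library, while the other genes had between 569 and 13812. FANCI at 69.2 RPKM lay above its partner FANCD2 at 25.3 RPKM in control cells. BRCA1 at 32.2 RPKM lay above PALB2 and BARD1, both at 11.8 RPKM, and above BRCA2 at 9.72 RPKM. The transcripts had a median GC content of 43.4% and a median counted length of 4724 bases, against 48.6% and 3341 bases over all genes.

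**Figure D3:**
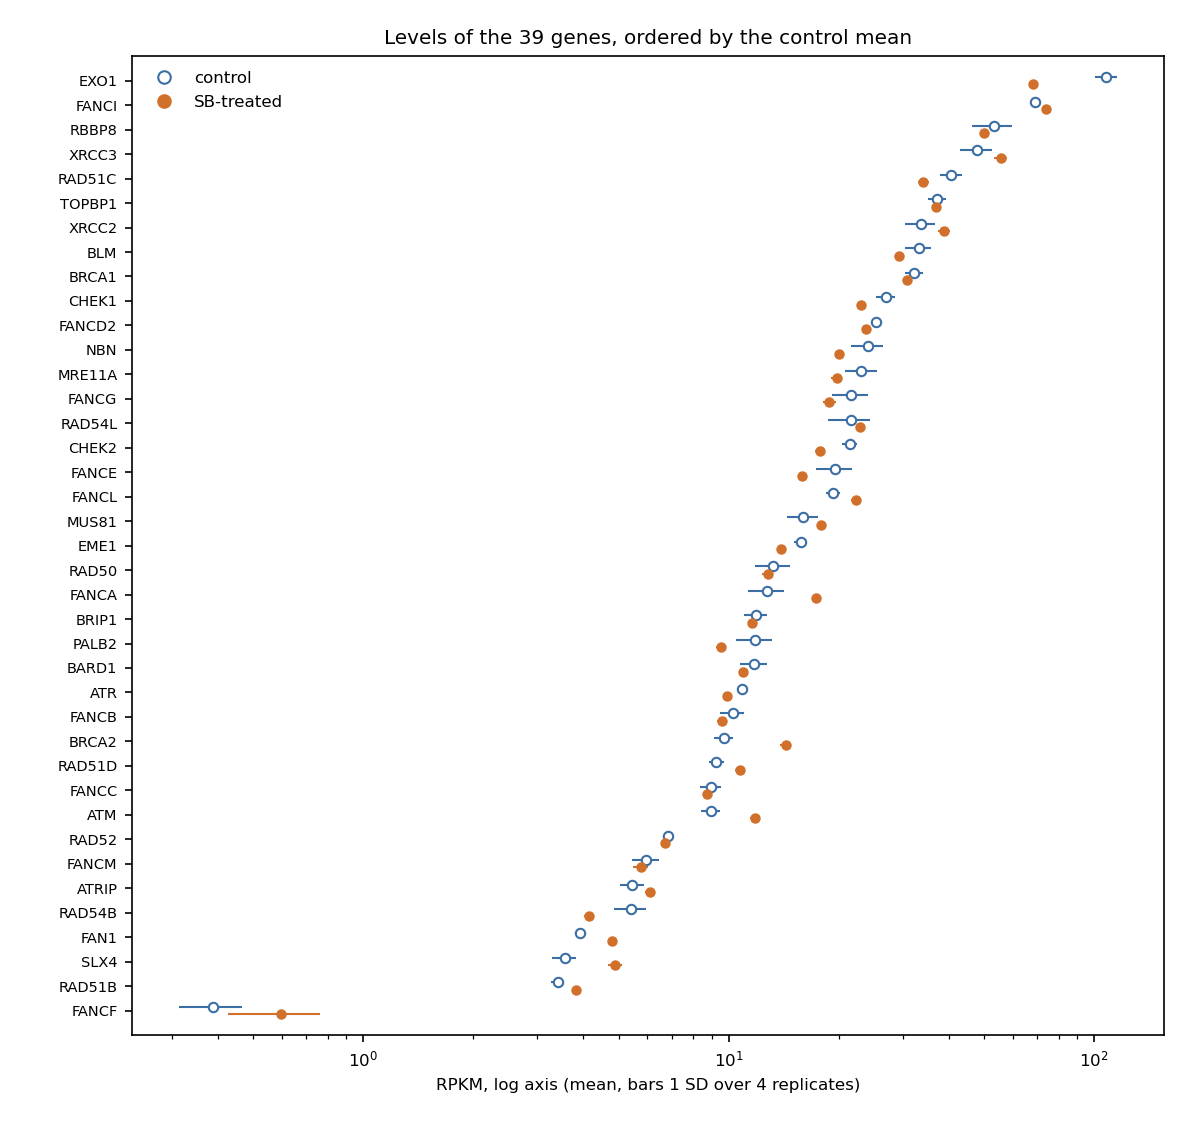
Mean RPKM of each of the 39 genes in control (open) and SB-treated cells (filled) on a log axis, with bars of 1 SD over 4 replicates and genes ordered by the control mean. The order runs from FANCF at 0.390 RPKM to EXO1 at 108 RPKM in control cells.

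Many genes of DNA replication and repair are known targets of E2F factors, which switch genes on at the start of S phase. The promoters were therefore searched, on both strands, for the 4 heptamers of an E2F core (the heptamer TTCCCGC, the heptamer TTCGCGC, the heptamer TTGCCGC or the heptamer TTGGCGC). RefSeq promoter sequences, 250 bases before to 50 after the start on GRCh38.p14, were found for 36 of the 39 genes. A single start was kept per gene, and it need not be the start used in these cells. For several genes, RAD51B, RBBP8, FANCC, RAD52, FAN1 and MUS81 among them, it lay inside the annotated gene. Other starts were not searched, so the split by motif given below holds for these windows only. At least 1 heptamer was present in 18 of these (50%), against 20.5% of 11250 promoters of genes in the table and 13.1% of all 27305 promoters. The CHR hexamer TTTGAA or the hexamer TTCGAA, an element of G2 and M phase genes, was present in 3 of 36 (8.33%), against 11.0% of the table's promoters. Rises and falls were found in both kinds of promoter: of the 18 genes with one, 6 were higher, 5 lower and 7 not called, and of the 18 without, 6 were higher, 6 lower and 6 not called. Over all genes of the table, 33.0% were higher and 32.6% lower, and the split by motif was not tested. A match of these letters is a description of the window and not a measured binding site.

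The promoters of 4 genes are printed because they cover each combination of response and motif: EXO1 fell and FANCA rose with heptamers, PALB2 fell and BRCA2 rose without. Each runs 5′ to 3′ from 250 bases before to 30 after the start, from RefSeq on GRCh38.p14, with the heptamers in capitals on whichever strand they were found. EXO1 lies at chr1:241847954-241848233 on the plus strand, FANCA at chr16:89816618-89816897 on the minus strand, BRCA2 at chr13:32315258-32315537 on the plus strand and PALB2 at chr16:23641281-23641560 on the minus strand.
EXO1: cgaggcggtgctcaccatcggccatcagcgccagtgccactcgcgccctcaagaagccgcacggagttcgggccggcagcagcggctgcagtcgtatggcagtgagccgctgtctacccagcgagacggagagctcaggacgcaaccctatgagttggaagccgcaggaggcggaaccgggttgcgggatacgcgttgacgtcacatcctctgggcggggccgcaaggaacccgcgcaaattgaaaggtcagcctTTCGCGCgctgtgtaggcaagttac
FANCA: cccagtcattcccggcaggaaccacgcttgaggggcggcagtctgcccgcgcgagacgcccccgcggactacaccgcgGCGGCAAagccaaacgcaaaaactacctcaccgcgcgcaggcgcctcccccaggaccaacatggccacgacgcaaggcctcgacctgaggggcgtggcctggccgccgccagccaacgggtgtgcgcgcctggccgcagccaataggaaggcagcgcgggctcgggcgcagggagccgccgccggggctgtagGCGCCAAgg
BRCA2: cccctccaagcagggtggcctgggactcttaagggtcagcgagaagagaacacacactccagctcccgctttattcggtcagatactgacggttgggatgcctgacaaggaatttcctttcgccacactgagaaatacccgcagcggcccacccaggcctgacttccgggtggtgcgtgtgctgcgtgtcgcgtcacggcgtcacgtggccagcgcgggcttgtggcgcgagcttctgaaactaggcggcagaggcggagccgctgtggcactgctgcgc
PALB2: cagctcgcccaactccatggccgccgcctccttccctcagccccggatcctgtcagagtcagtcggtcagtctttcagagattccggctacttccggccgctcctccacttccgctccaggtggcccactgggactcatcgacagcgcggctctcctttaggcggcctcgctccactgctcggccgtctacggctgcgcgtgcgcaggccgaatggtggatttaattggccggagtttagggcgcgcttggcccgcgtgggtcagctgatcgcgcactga

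The calls by role given below stand beside 33.0% of all genes called higher and 32.6% called lower. Within the BRCA1/BRCA2 group, which starts filament assembly, BRCA2 rose, PALB2 fell, and BRCA1, BARD1 and BRIP1 were not called. BRCA2 (chr13:32315086-32400268, plus strand) encodes a protein that acts on resected ends to start filament assembly. It was at 10.3, 10.0, 8.94 and 9.63 RPKM in the 4 controls and at 15.1, 14.0, 14.1 and 14.2 RPKM in the 4 SB-treated libraries. Every treated value lay above every control value. The mean rose from 9.72 ± 0.593 to 14.4 ± 0.508 RPKM (SD, n = 4), 47.7% higher, with a log2 fold change of 0.52 (SE 0.047, limma adjusted p = 1.07e-05). This was the largest rise on this scale among the 39 genes, and it was 0.55 without control replicate 1.

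PALB2 (chr16:23603160-23641321, minus strand), which links BRCA1 to BRCA2, moved the other way. Its controls were at 13.8, 11.1, 11.3 and 11.1 RPKM and its SB-treated libraries at 9.85, 9.26, 9.80 and 9.30 RPKM. The groups did not overlap, with control replicate 1 far above the others. The mean went from 11.8 ± 1.32 to 9.55 ± 0.314 RPKM (SD, n = 4), with a log2 fold change of -0.27 (SE 0.065, limma adjusted p = 0.00441), and of -0.20 without that library. BRCA1 (chr17:43044295-43170245, minus strand), the ubiquitin ligase that promotes resection and recruits PALB2, was at 34.8, 30.9, 31.2 and 31.7 RPKM in control and 30.6, 30.4, 30.9 and 31.5 RPKM in SB-treated libraries. The groups overlapped, and the log2 fold change of -0.06 (SE 0.043) did not pass (limma adjusted p = 0.266). BARD1, its partner in the ligase, had a log2 fold change of -0.09, and BRIP1, a helicase that binds BRCA1, one of -0.03. All 3 passed as lower with the length and GC correction.

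The 5 genes RAD51B, RAD51C, RAD51D, XRCC2 and XRCC3 encode paralogs that form complexes and stabilise the filament. Of these, RAD51B, RAD51D, XRCC2 and XRCC3 rose and RAD51C fell. XRCC3 (chr14:103697609-103715504, minus strand) was at 40.6, 50.6, 50.2 and 49.6 RPKM in control and 52.6, 57.7, 57.3 and 54.7 RPKM in SB-treated libraries. The groups did not overlap, and control replicate 1 was the low one here. The mean rose from 47.8 ± 4.78 to 55.6 ± 2.39 RPKM (SD, n = 4), with a log2 fold change of 0.22 (SE 0.070, limma adjusted p = 0.0198), and of 0.14 without that library. Leaving out SB-treated replicate 2 or SB-treated replicate 3 ended the call (limma adjusted p = 0.0551 and 0.0537). XRCC3 shares 5756 exonic bases of the annotation with KLC1 on the opposite strand, and the strand setting of the authors' counting is not given in the sources used here. KLC1 itself had a log2 fold change of -0.11 (limma adjusted p = 0.0562).

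RAD51C (chr17:58692573-58735611, plus strand), the paralog present in both paralog complexes, was at 44.9, 38.8, 40.6 and 38.6 RPKM in control and 35.5, 32.8, 33.7 and 34.6 RPKM in SB-treated libraries. The groups did not overlap. The mean fell from 40.7 ± 2.92 to 34.1 ± 1.16 RPKM (SD, n = 4), with a log2 fold change of -0.25 (SE 0.052, limma adjusted p = 0.00225). With the trends on gene length and on GC content removed and without control replicate 1, its log2 fold change was -0.05 (limma adjusted p = 0.159), so the call rested on the uncorrected values. The log2 fold changes of XRCC2, RAD51D and RAD51B were 0.21, 0.19 and 0.13. XRCC2 overlapped between the groups through control replicate 1 at 38.2 RPKM, the other controls being between 31.5 and 32.3 RPKM and the treated libraries between 37.6 and 40.3 RPKM.

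Among the annealing and translocase factors RAD54B fell, while RAD52 and RAD54L were not called. RAD54B, a translocase of the strand exchange step, was at 6.19, 5.13, 5.32 and 4.999 RPKM in control and 4.17, 4.13, 4.30 and 3.99 RPKM in SB-treated libraries. Every treated value lay below every control value. The mean went from 5.41 ± 0.537 to 4.15 ± 0.130 RPKM (SD, n = 4), 23.3% lower, with a log2 fold change of -0.31 (SE 0.057, limma adjusted p = 8.63e-04), and of -0.26 without control replicate 1. RAD54L, the main RAD54 gene, had a log2 fold change of 0.09 that turned to -0.01 without that library, and RAD52, which anneals single strands, had one of -0.02.

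The break recognition and resection genes held falls and no rise: EXO1, NBN, MRE11A and BLM fell, and RAD50 and RBBP8 were not called. Over all genes of the table, 32.6% were lower and 33.0% higher. EXO1 (chr1:241847967-241895148, plus strand) showed the largest change of the 39 genes on this scale. It was at 119, 102, 106 and 105 RPKM in the controls and at 69.7, 66.1, 67.7 and 68.9 RPKM in the SB-treated libraries. The lowest control exceeded the highest treated value by a wide margin. The mean fell from 108 ± 7.64 to 68.1 ± 1.56 RPKM (SD, n = 4), with a log2 fold change of -0.66 (SE 0.050, limma adjusted p = 4.20e-06), of -0.61 without control replicate 1 and of -0.59 with the length and GC correction added. Counted from the largest fall, EXO1 was number 286 of the 14526 genes.

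The other falls of this group were smaller. NBN, the subunit that tethers ATM to the break, went from 24.0 ± 2.44 to 20.1 ± 0.521 RPKM (SD, n = 4), MRE11A, the nuclease, from 23.1 ± 2.32 to 19.8 ± 0.668 RPKM, and BLM, the helicase of resection and of joint resolution, from 33.2 ± 2.68 to 29.3 ± 0.440 RPKM. Their log2 fold changes were -0.24, -0.21 and -0.17 (limma adjusted p = 0.0065, 0.0149 and 0.0166), and none of the 3 passed without the TMM factors, where EXO1 alone of the group did. RAD50, the third subunit of the complex, had a log2 fold change of -0.04, and RBBP8, which encodes the resection factor CtIP, one of -0.07. Both had the opposite sign without control replicate 1.

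In the Fanconi core complex and its anchor, FANCA, FANCL and FANCF rose, FANCE fell, and FANCB, FANCC, FANCG and FANCM were not called. FANCA (chr16:89726683-89816977, minus strand), the subunit most often mutated in Fanconi anaemia, was at 10.6, 13.7, 13.2 and 13.4 RPKM in control and 17.6, 17.6, 16.96 and 17.2 RPKM in SB-treated libraries. Every treated value lay above every control value, and control replicate 1 was the lowest control. The mean rose from 12.7 ± 1.41 to 17.4 ± 0.332 RPKM (SD, n = 4), 36.3% higher, with a log2 fold change of 0.42 (SE 0.069, limma adjusted p = 4.60e-04) and of 0.35 without that library. FANCA shares 2409 exonic bases with ZNF276 on the opposite strand, which also rose, by a log2 fold change of 0.22.

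FANCE (chr6:35452338-35467104, plus strand), which contacts FANCD2, was at 16.7, 21.7, 18.95 and 20.7 RPKM in control and 15.6, 16.1, 15.6 and 16.4 RPKM in SB-treated libraries. The groups came close at control replicate 1 and did not overlap. The log2 fold change was -0.27 (SE 0.070, limma adjusted p = 0.00699), and -0.34 without that library. The call was lost without the TMM factors, at -0.17 (limma adjusted p = 0.0612). FANCL, the ubiquitin ligase of the complex, rose from 19.3 ± 0.833 to 22.3 ± 0.743 RPKM (SD, n = 4), with a log2 fold change of 0.20. FANCF was at 0.334, 0.476, 0.431 and 0.318 RPKM in control and 0.558, 0.380, 0.771 and 0.669 RPKM in SB-treated libraries, with groups that overlapped, and its call (limma adjusted p = 0.0427) was lost in 6 of the 8 runs that left out 1 library, all but those without control replicate 2 and without SB-treated replicate 2. FANCG was not called with all libraries (log2 fold change -0.18, limma adjusted p = 0.0517). It was called lower without control replicate 1 (log2 fold change -0.26, limma adjusted p = 1.18e-04). FANCB, FANCC and FANCM, the last being the anchor that binds DNA, had log2 fold changes between -0.08 and -0.04.

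The FANCD2-FANCI pair, which the core complex modifies, moved little and in opposite directions. FANCD2 (chr3:10026370-10101932, plus strand) was at 24.8, 25.3, 25.3 and 25.7 RPKM in control and 24.3, 23.4, 23.7 and 23.6 RPKM in SB-treated libraries. FANCI (chr15:89243945-89317261, plus strand) was at 68.9, 67.9, 68.8 and 71.0 RPKM in control and 75.0, 73.4, 72.6 and 73.6 RPKM in SB-treated libraries. Neither gene overlapped between the groups, although the gaps were narrow. FANCD2 had a log2 fold change of -0.08 (SE 0.031, limma adjusted p = 0.0346) and FANCI one of 0.09 (SE 0.032, limma adjusted p = 0.0293). Both calls were lost with the replicate number as a block and with a pseudocount of 0.1. Each was also lost in 6 of the 8 runs that left out 1 library: FANCD2 kept its call only without control replicate 1 or SB-treated replicate 1, and FANCI only without control replicate 1 or control replicate 4. FANCI was lost as well with the length and GC correction, at 0.07 (limma adjusted p = 0.0687), and FANCD2 turned to 0.02 without the TMM factors.

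Among the nucleases and their scaffold, SLX4 and FAN1 rose, EME1 fell and MUS81 was not called. SLX4 (chr16:3581181-3611606, minus strand), the scaffold that holds several nucleases, was at 3.26, 3.43, 3.87 and 3.69 RPKM in control and 4.70, 5.18, 4.86 and 4.85 RPKM in SB-treated libraries. Every treated value lay above every control value. The mean rose from 3.56 ± 0.268 to 4.90 ± 0.203 RPKM (SD, n = 4), 37.4% higher, with a log2 fold change of 0.37 (SE 0.048, limma adjusted p = 1.10e-04). At this level the added 1 RPKM makes the log2 fold change smaller, and with a pseudocount of 0.1 it was 0.45.

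FAN1 (chr15:30890559-30943108, plus strand), a nuclease that binds ubiquitinated FANCD2, was at 3.96, 3.89, 3.90 and 3.97 RPKM in control and 4.83, 4.78, 4.70 and 4.89 RPKM in SB-treated libraries. The replicates of each group lay close together, with SDs of 0.0427 and 0.0830 RPKM. The mean was 22.2% higher after SB, with a log2 fold change of 0.235 (SE 0.030, limma adjusted p = 1.01e-04). The call was lost when length and GC trends were removed from all 8 libraries. EME1, the partner of the nuclease MUS81, fell from 15.8 ± 0.656 to 13.9 ± 0.218 RPKM (SD, n = 4), with a log2 fold change of -0.17 (limma adjusted p = 0.00315). Without the TMM factors it was -0.07 and the call was lost (limma adjusted p = 0.119). MUS81 had 4 treated values above all controls, 17.4 to 18.3 RPKM against 13.7 to 16.99 RPKM, but a limma adjusted p of 0.0517, and it was called higher without control replicate 1 (log2 fold change 0.09, limma adjusted p = 0.0157).

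The checkpoint genes moved in both directions: ATM rose, ATR and both effector kinases fell, the ATR partner ATRIP rose and TOPBP1, the activator of ATR, was not called. ATM (chr11:108223044-108369102, plus strand), the kinase that responds to double-strand breaks, was at 9.66, 8.62, 8.51 and 9.01 RPKM in control and 12.3, 11.6, 11.5 and 11.9 RPKM in SB-treated libraries. Every treated value lay above every control value. The mean rose from 8.95 ± 0.518 to 11.8 ± 0.377 RPKM (SD, n = 4), 31.8% higher, with a log2 fold change of 0.36 (SE 0.044, limma adjusted p = 7.12e-05), and of 0.40 without control replicate 1.

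ATR (chr3:142449007-142578733, minus strand), the kinase of stalled forks, was at 11.3, 10.7, 10.6 and 10.9 RPKM in control and 10.0, 10.1, 9.51 and 9.95 RPKM in SB-treated libraries. The groups did not overlap. Its log2 fold change was -0.12 (SE 0.035, limma adjusted p = 0.0108), a call that was lost without the TMM factors. CHEK1 (chr11:125625163-125676255, plus strand), the effector kinase of ATR, was at 29.4, 26.1, 26.3 and 25.9 RPKM in control and 23.3, 22.6, 23.0 and 23.1 RPKM in SB-treated libraries. All 4 treated values lay below the controls, and the log2 fold change was -0.22 (SE 0.044, limma adjusted p = 0.00179). CHEK2 (chr22:28687743-28742422, minus strand), the effector kinase of ATM, was at 23.0, 20.8, 21.1 and 21.1 RPKM in control and 18.1, 17.4, 18.3 and 17.2 RPKM in SB-treated libraries. The groups did not overlap, and the log2 fold change was -0.26 (SE 0.041, limma adjusted p = 3.87e-04). Without control replicate 1 the log2 fold changes were -0.18 for CHEK1 and -0.23 for CHEK2, and both stayed past the threshold.

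**Figure D4:**
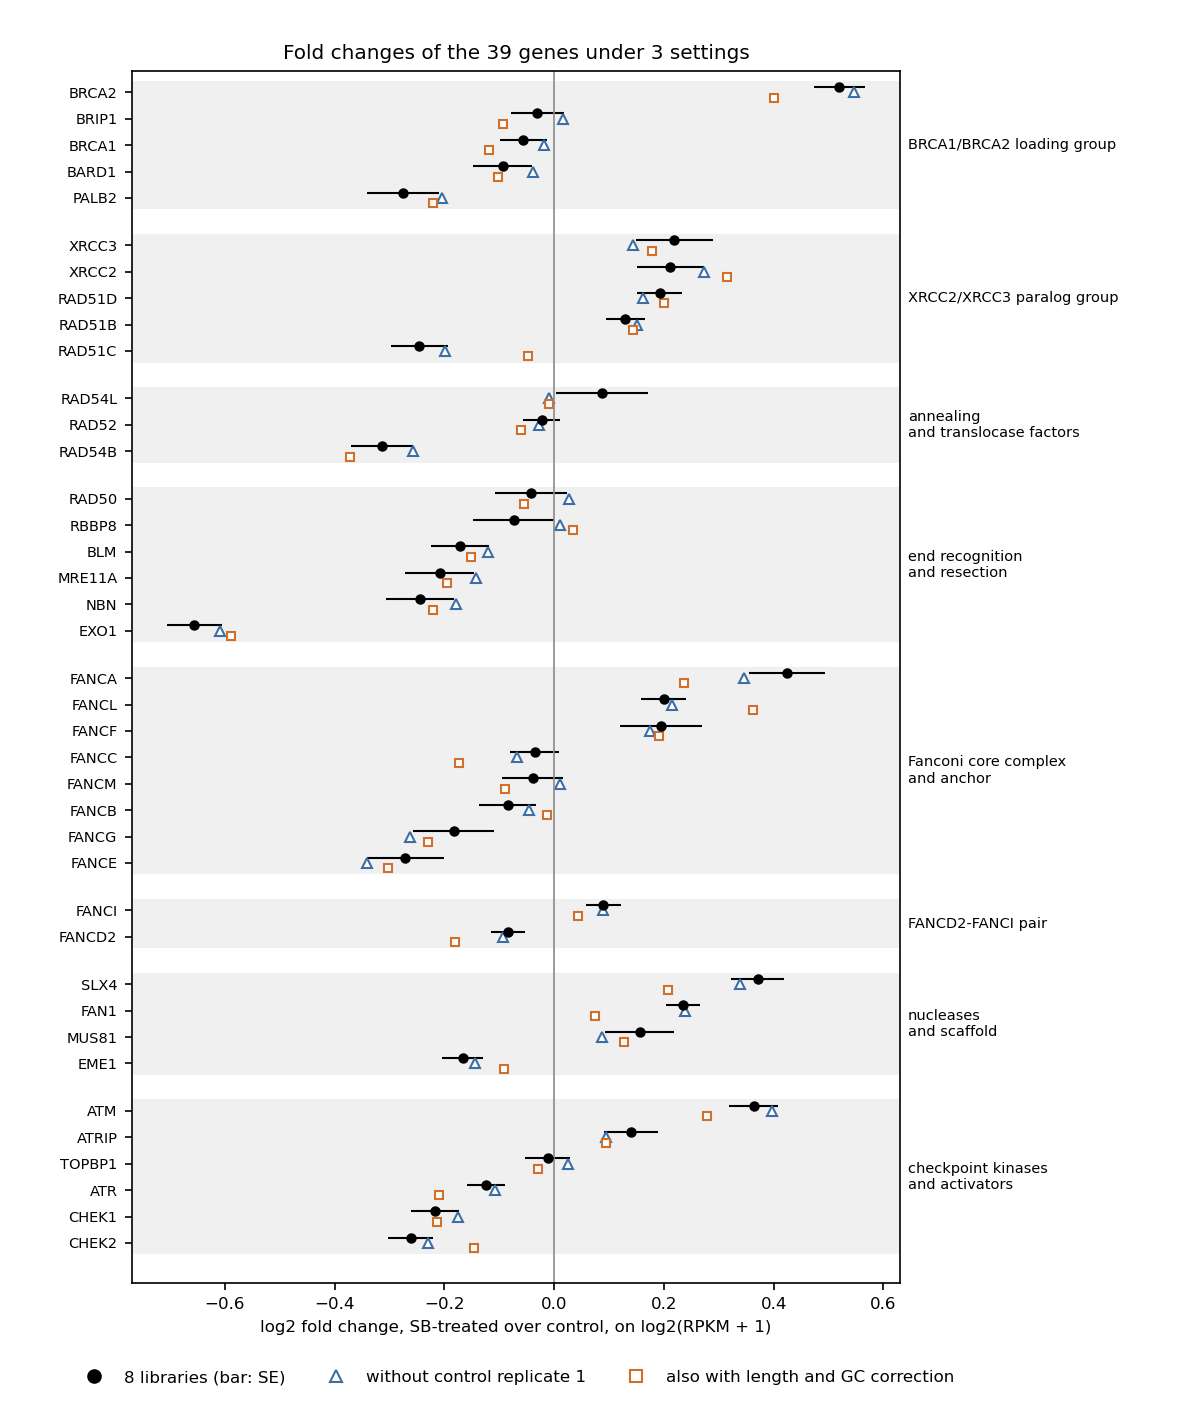
Log2 fold changes of the 39 genes, SB-treated over control, from log2(RPKM + 1), with all 8 libraries (black, bars give the SE), without control replicate 1 (triangles) and with a length and GC correction added to that (squares). EXO1 stayed between -0.66 and -0.59 and BRCA2 between 0.40 and 0.55, while RAD51C moved from -0.25 to -0.05.

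Fold changes varied with transcript properties across the table, and the transcripts of this gene set are long and low in GC, as given above. Over 14526 genes the log2 fold change had a correlation of 0.28 with log2 of the counted length, and over 14093 genes one of 0.12 with GC content, which was -0.0022 without control replicate 1. Genes are not independent replicates, and these correlations describe the table. With both trends removed and that library left out, 12 of the 39 genes were higher and 18 lower, where 75.7% of all genes were called (36.3% higher and 39.4% lower). BRCA1, BARD1 and BRIP1 then passed as lower, with log2 fold changes of -0.12, -0.10 and -0.09 (limma adjusted p = 0.00161, 0.00176 and 0.00291), so that 4 of the 5 genes of the BRCA1/BRCA2 group were lower. FANCC, at -0.17, and FANCM, at -0.09, passed as well. FANCL had a log2 fold change of 0.36, while ATM was at 0.28, FANCA at 0.24 and SLX4 at 0.21. As the plot of the 3 settings shows, EXO1 had the largest fall and BRCA2 the largest rise of the set in each of them. Across every setting that was run, 8 of the 13 rises kept their call (BRCA2, RAD51B, RAD51D, XRCC2, FANCA, FANCL, SLX4 and ATM), as did 5 of the 13 falls (PALB2, RAD54B, EXO1, CHEK1 and CHEK2). The share of all genes that kept a call in every setting is not given here, so these counts have no background beside them.

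Exons of 14 of the 39 genes overlap another gene of the table in GENCODE release 44. The overlaps are taken over all annotated exons of a gene and can exceed the part that was counted. Of these 14, 8 were higher, 4 lower and 2 not called, or 57.1% and 28.6%, where 33.0% and 32.6% of all genes were called. Strand setting and shared reads were not tested as a part of this. ATRIP shares 1448 bases with TREX1 on the same strand, so that reads from both cannot be told apart there. TREX1 rose, with a log2 fold change of 0.75, while ATRIP, with 5.45 ± 0.408 RPKM in control and 6.10 ± 0.183 RPKM in SB-treated cells (SD, n = 4), had a log2 fold change of 0.14 (limma adjusted p = 0.0299). The ATRIP call was lost without SB-treated replicate 2, 3 or 4 in turn, with limma adjusted p-values between 0.0643 and 0.0813. FAN1 shares 1507 bases with MTMR10 on the opposite strand, which had a log2 fold change of 0.08 (limma adjusted p = 0.122). FANCF shares 315 bases with GAS2 on the opposite strand. GAS2 rose from a mean of 0.0966 RPKM in control to 0.523 RPKM in SB-treated cells, on a mean of 32.8 reads per library. Its log2 fold change was 0.47 (limma adjusted p = 1.80e-05). BRCA1, CHEK2 and FANCD2 have pseudogene copies elsewhere in the genome, and how the counting treated reads that fit both is not given in the sources used here.

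A further 54 genes of homologous recombination and the Fanconi pathway that are not among the 39 all have a row, and 11 of them were higher and 20 lower, with a median log2 fold change of -0.06. This is 57.4% called, against 65.6% of all genes (33.0% higher and 32.6% lower). RAD51AP1 and PSMC3IP, both accessory factors of strand exchange, fell by 0.62 and 0.53 on the log2 scale (limma adjusted p = 1.51e-04 and 4.71e-05). The largest rises were in EME2, a MUS81 partner (0.55), GEN1, a Holliday junction resolvase (0.42), and FBXO18, a helicase that restrains recombination (0.30). Without the TMM factors the 54 genes divided as 18 higher and 13 lower, and their median turned to 0.04. In that setting 43.0% of all genes were higher and 23.1% lower.

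Genes of S phase, when recombination is most used, were lower in 13 of 22 cases and higher in 3. Over all genes, 32.6% were lower and 33.0% higher. The S phase list had a median log2 fold change of -0.21. Its summed level was between 1919 and 1966 RPKM in control libraries and between 1621 and 1635 RPKM in SB-treated libraries. CDC6 (-0.66), MCM6 (-0.50) and CDC45 (-0.46), all needed to license or fire replication origins, fell the most, and CCNE2 (0.40), CDT1 (0.28) and E2F2 (0.21) rose. Of 16 genes of G2 and M phase, 4 were higher and 6 lower, with MKI67 (0.46), PLK1 (0.42) and CENPF (0.31) up and CCNA2 (-0.39), AURKB (-0.30) and UBE2C (-0.24) down. Without the TMM factors the S phase list still held more falls, 9 against 4 rises, while the G2 and M phase list held 5 rises and 4 falls. Of all genes, 43.0% were higher and 23.1% lower in that setting. These values stand beside those of the recombination genes, and the part of the cell cycle in the changes of the 39 genes was not tested.

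**Figure D5:**
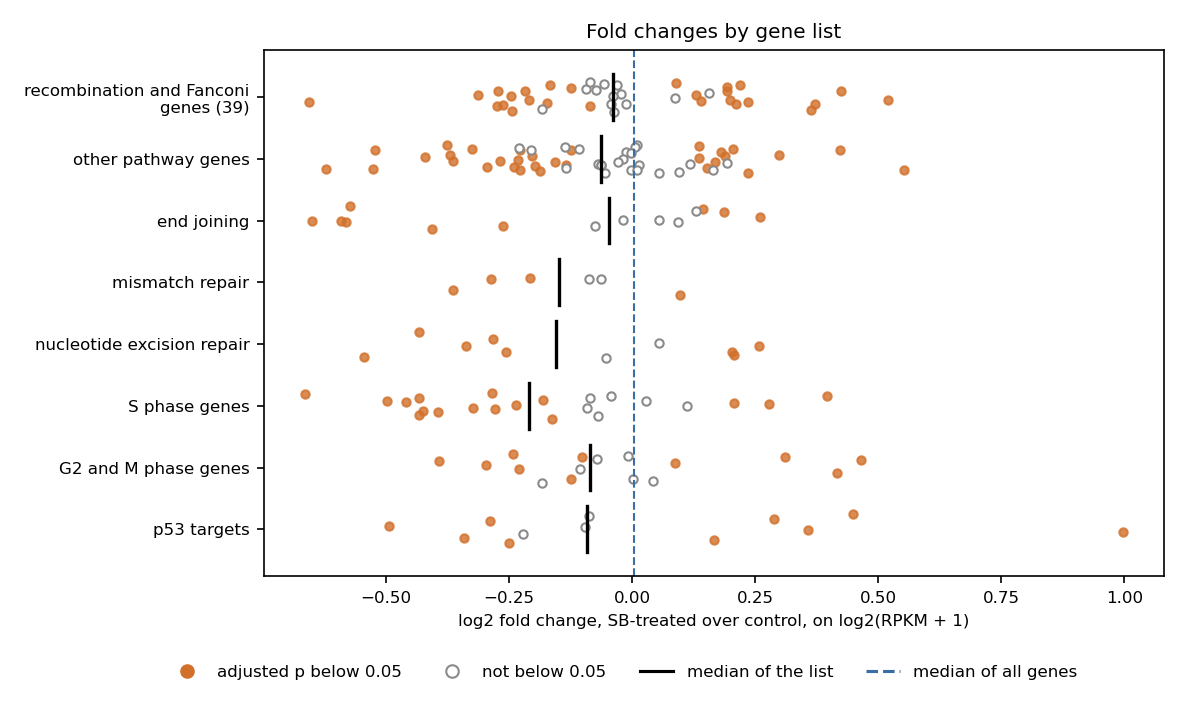
Log2 fold change of each gene, SB-treated over control on log2(RPKM + 1), for the 39 genes and 7 other lists, with genes past an adjusted p of 0.05 filled, black bars at each list's median and a dashed line at the median of all genes. The medians lie between -0.21 for the S phase list and -0.04 for the 39 genes with the TMM factors; without them the medians of the mismatch repair, nucleotide excision repair and S phase lists stay below 0 and the others do not.

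The other break repair route, end joining, needs no template. Of its 14 genes, 3 were higher and 6 lower, with a median log2 fold change of -0.05. Over all genes, 33.0% were higher and 32.6% lower. Both Ku subunits fell, XRCC5 from 202 ± 12.4 to 129 ± 3.20 RPKM and XRCC6 from 313 ± 9.38 to 209 ± 2.74 RPKM (SD, n = 4), with log2 fold changes of -0.65 and -0.58 (limma adjusted p = 2.91e-06 and 1.05e-06). PARP1, which senses strand breaks, fell by 0.59 on the same scale. The rises were in APLF (0.26), XRCC1 (0.19) and DCLRE1C (0.14). The falls of XRCC5, XRCC6 and PARP1 were thus of the size of that of EXO1, at higher levels per length.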

How the data were processed

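RNA of 8 cultures, 4 control and 4 SB-treated, was measured by RNA-seq. The authors made a stranded total RNA library per culture, aligned the reads to hg38 with TopHat2 2.1.0, counted them per gene with featureCounts 1.5.0, dropped genes that did not reach more than 1 CPM in 2 or more samples, and scaled libraries with TMM in edgeR 3.16.5. They deposited RPKM values per library, beside columns of their own comparison (log2 fold change, mean log2 CPM, p-value and FDR). The comparison columns were not used, except that the deposited mean log2 CPM served to recover gene lengths. Columns of per-sample values left unused numbered 0.

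Groups were compared on log2(RPKM + 1) with limma 3.58.1 in R 4.3.3 (lmFit and eBayes, Benjamini-Hochberg over 14526 genes, threshold 0.05). The pseudocount of 1 makes fold changes of weakly expressed genes smaller than their ratios. Whole reads were recovered from the RPKM values of 100% of the genes and used for depth, for voom and for scaling without TMM factors. The recovery and the fit were tested on simulated data. Other tables were made with Python 3.11.15, with GC content and exons from GENCODE release 44 (GC for 97.0% of genes).

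The genes and lists were chosen with earlier results of these data known. Values in every library are given for the 6 largest rises and the 6 largest falls past the threshold and for BRCA1, BRCA2, FANCD2, FANCI, ATM, ATR and CHEK1, and the 3 largest rises and falls past it are named for every other list, except for some genes that are not reported here. Promoters were not analysed here for FANCI, NBN and RAD54B. Stromal, immune and endothelial marker lists had 3 of 6, 3 of 5 and 1 of 4 genes with a row. Their summed levels were 6.13 to 8.32, 3.28 to 3.77 and 0.268 to 0.348 RPKM in control and 6.07 to 6.29, 3.35 to 4.14 and 0.113 to 0.185 RPKM in SB-treated libraries.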

Additional observations from a re-analysis of the deposited data

Results flagged for a closer look

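In 14 of 78 groups of 4 libraries (39 genes, 2 groups each), 1 library lay apart from the other 3 by Dixon's criterion, where chance gives about 1 in 20 groups. The library was control replicate 1 in 12 of the 14. It lay above the other controls for BARD1 (13.3 RPKM, the others 11.2 to 11.3), PALB2 (13.8, the others 11.1 to 11.3), XRCC2 (38.2, the others 31.5 to 32.3), MRE11A (26.5, the others 21.7 to 22.4), RBBP8 (63.1, the others 49.3 to 50.2), CHEK1 (29.4, the others 25.9 to 26.3) and CHEK2 (23.0, the others 20.8 to 21.1). It lay below them for RAD51D (8.63 RPKM, the others 9.41 to 9.54), XRCC3 (40.6, the others 49.6 to 50.6), RAD54L (17.3, the others 22.6 to 23.3), FANCA (10.6, the others 13.2 to 13.7) and MUS81 (13.7, the others 16.6 to 16.99). The other 2 were on SB-treated replicate 2, with RAD51B at 3.72 RPKM (the others 3.85 to 3.87) and FANCG at 20.03 RPKM (the others 18.4 to 18.6).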

How the results depend on the processing

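Among the alternatives run, taking out the TMM factors moved the counts most. Without the TMM factors 6 of the 39 genes were lower instead of 13, the other pathway genes gave 18 higher and 13 lower instead of 11 and 20, and the median log2 fold change of the 39 genes was 0.0561. Of all genes, 43.0% were higher and 23.1% lower in that setting. The sign also turned there for BRCA1 (0.0454), BARD1 (0.00283), BRIP1 (0.0666), RAD52 (0.0690), RAD50 (0.0561), RBBP8 (0.0296), FANCB (0.0109), FANCC (0.0588), FANCM (0.0505), FANCD2 (0.0162) and TOPBP1 (0.0905). Median-of-ratios scaling, a pseudocount of 0.1, a minimum mean RPKM of 1 (which left out FANCF), voom and an intensity trend gave 12 to 14 rises and 12 to 14 falls. A length and GC correction gave 12 rises and 18 falls, with or without the replicate block, and FANCB at 0.0118 in both. With that correction and without control replicate 1, a setting chosen after seeing the data, 17 of the other pathway genes were higher, RAD54L was at -0.00855 and RBBP8 at 0.0336. Leaving out 1 library at a time gave 9 to 13 rises and 12 to 14 falls among the 39 genes, 4311 to 5459 and 4285 to 5511 among all genes, 8 to 16 and 18 to 23 among the other pathway genes, 15 to 20 and 34 to 45 over the context lists, and a median between -0.0654 and -0.0100. The fewest rises of the 39 came without SB-treated replicate 3. The most rises of the other pathway genes came without control replicate 1. Over these runs the sign turned, each time without control replicate 1, for BRIP1 (-0.0569 to 0.0154), RAD54L (-0.0100 to 0.126), RAD50 (-0.0768 to 0.0262), RBBP8 (-0.106 to 0.0108), FANCM (-0.0654 to 0.0106) and TOPBP1 (-0.0327 to 0.0247), and without control replicate 4 for FANCC (-0.0674 to 0.000275). Deviations of same-numbered replicates had correlations of 0.38, 0.327, 0.173 and -0.16, so the numbers were not taken to pair the cultures, and not every library correlated best with its own number. Under the replicate block the 39 genes divided as 12 higher and 13 lower, FANCD2 and FANCI lost their calls and FANCG gained one. The cause of these shifts was not tested. FANCF, with 66.9 reads per library on average, is the gene for which depth limits the comparison.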

Other observations

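Genes of other repair routes moved in both directions, where 33.0% of all genes were higher and 32.6% lower. Of 6 mismatch repair genes with a row, 1 was higher and 3 lower, with a median log2 fold change of -0.15. MSH6, a subunit of the mismatch recognition complex, fell from 53.3 ± 1.52 to 43.6 ± 0.357 RPKM (SD, n = 4), with a log2 fold change of -0.29, and PMS2 had one of -0.21. MLH3, on a mean of 70.1 reads per library, was at 0.177 RPKM in control and had a log2 fold change of 0.10. At this level the pseudocount of 1 keeps that value small, and the ratio of the means was 1.46. The MLH3 call was lost with the length and GC correction (limma adjusted p = 0.546). Of 10 nucleotide excision repair genes, 3 were higher and 5 lower, with a median of -0.15. DDB2 and DDB1, which recognise damage from ultraviolet light, fell by 0.54 and 0.34 on the log2 scale and RAD23B by 0.43, while ERCC2 (0.26), ERCC6 (0.21) and ERCC3 (0.20) rose. Without the TMM factors the mismatch repair list held 1 rise and 3 falls, and the nucleotide excision repair list 4 of each. Of all genes, 43.0% were then higher and 23.1% lower.

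Targets of p53, the transcription factor activated by ATM and CHEK2, were mixed: of 13 genes, 5 were higher and 4 lower. Over all genes the shares were 33.0% higher and 32.6% lower. CDKN1A, the inhibitor of cyclin-dependent kinases, rose from 7.67 ± 0.721 to 16.3 ± 0.617 RPKM (SD, n = 4), with a log2 fold change of 0.997 (SE 0.060, limma adjusted p = 1.14e-06), and BBC3 (0.45) and SESN2 (0.36) also rose. FDXR (-0.49), GADD45A (-0.34) and FAS (-0.29) fell. Without the TMM factors the p53 list held 6 rises and 3 falls, where 43.0% of all genes were higher and 23.1% lower.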
